A study of Sus scrofa with 20 samples.

Results

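A set of 10 genes for blood vessel growth and vessel tone was examined in the pig uterus. The genes are the ligand VEGFA and its receptors KDR, FLT1 and NRP1, the angiopoietins ANGPT1 and ANGPT2 with their receptor TEK, the vessel-active peptides ADM and EDN1, and the angiogenesis inhibitor THBS1. Their rows were taken by gene symbol, and the set was chosen with earlier results of these data known. Each symbol had 1 row among the 30345 gene rows, and all 10 passed the filter on low counts that left 17745 genes for testing. The study asked how the parts of the boar ejaculate that are inseminated alter uterine gene expression.

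Uterine tissue came from 20 wild-type crossbred Large-White by Landrace sows (Danbred genetic), in 4 groups of 5, with 1 library per sow. The sows were killed 6 days after estrus began. Control sows were not inseminated. FR1 sows received the sperm-rich ejaculate fraction, FR2 sows the rich plus intermediate fractions, and FR3 sows the rich, intermediate and poor fractions together, post-cervically at the onset of estrus and again daily while standing heat lasted. The semen came from 3 Pietrain boars. Uterine horns were checked for embryos, and which sows carried them is not among the labels. Semen and early pregnancy therefore cannot be told apart in any comparison with control. The 4 groups share 1 batch label. Libraries are named by group and column number, because the sow behind a column is not known.

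VEGFA is the main growth and permeability signal for endothelium. It acts through the signalling receptor KDR, the high-affinity receptor FLT1, which also traps ligand, and the co-receptor NRP1. ANGPT1 activates the endothelial receptor TEK and stabilises vessels, whereas ANGPT2 competes with it and loosens them. In the pig the uterine lining becomes more permeable and more vascular around the time embryos attach, and the genes of these families are used to follow that change.

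Library totals ran from 33 to 62.9 M estimated counts. Levels are CPM, counts scaled to library size with TMM factors. They are not corrected for transcript length, so levels are compared between libraries and not between genes. In whole tissue, fewer cells of a type and less RNA per cell cannot be told apart. Of 17 endothelial markers tested, 0 passed edgeR's quasi-likelihood test in all inseminated against control (1 lower at an unadjusted p below 0.05; DESeq2 called 1 lower and limma-voom 0). Of the 17, 14 had a fitted difference above 0, with a median of 0.37 on the log2 scale against -0.05 over all genes. Their summed level was 1005 to 1436 CPM in control libraries and 983 to 1441 CPM in inseminated ones. SOX17, which uterine epithelium also expresses, held 40.7% to 79.2% of that sum. Without SOX17, a removal chosen after its level was seen, the other 16 markers summed to 330 to 597 CPM in control and 204 to 800 CPM in inseminated libraries. Smooth muscle markers summed to 1128 CPM in CONTROL_1 and to 3936 to 33050 CPM in the other 19 libraries.

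When the mean of the 3 inseminated groups was set against control, 4 of the 10 genes passed the test (edgeR, Benjamini-Hochberg adjusted p below 0.05 over all genes tested). VEGFA and ADM fell, and NRP1 and ANGPT2 rose. The share called among all genes was 11.1%, with 2.87% higher and 8.2% lower. At an unadjusted p below 0.05 the number was 6 of 10, which adds EDN1 and THBS1, both with higher fitted levels, and 26% of all genes passed that cut. The median log2 difference was 0.48 over the 10 genes and -0.05 over all genes. DESeq2 called 6 of the 10 and 16.3% of all genes. Of the 10, limma-voom called 0 with a shared spread and 0 with a spread per group, beside 7.37% and 1.45% of all genes. None of the 10 separated control from inseminated libraries without overlap. The share of all genes that did so was not counted, so the 10 cannot be set beside it. Leaving out the single library CONTROL_3 left 0 of 10 called.

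**Figure D1:**
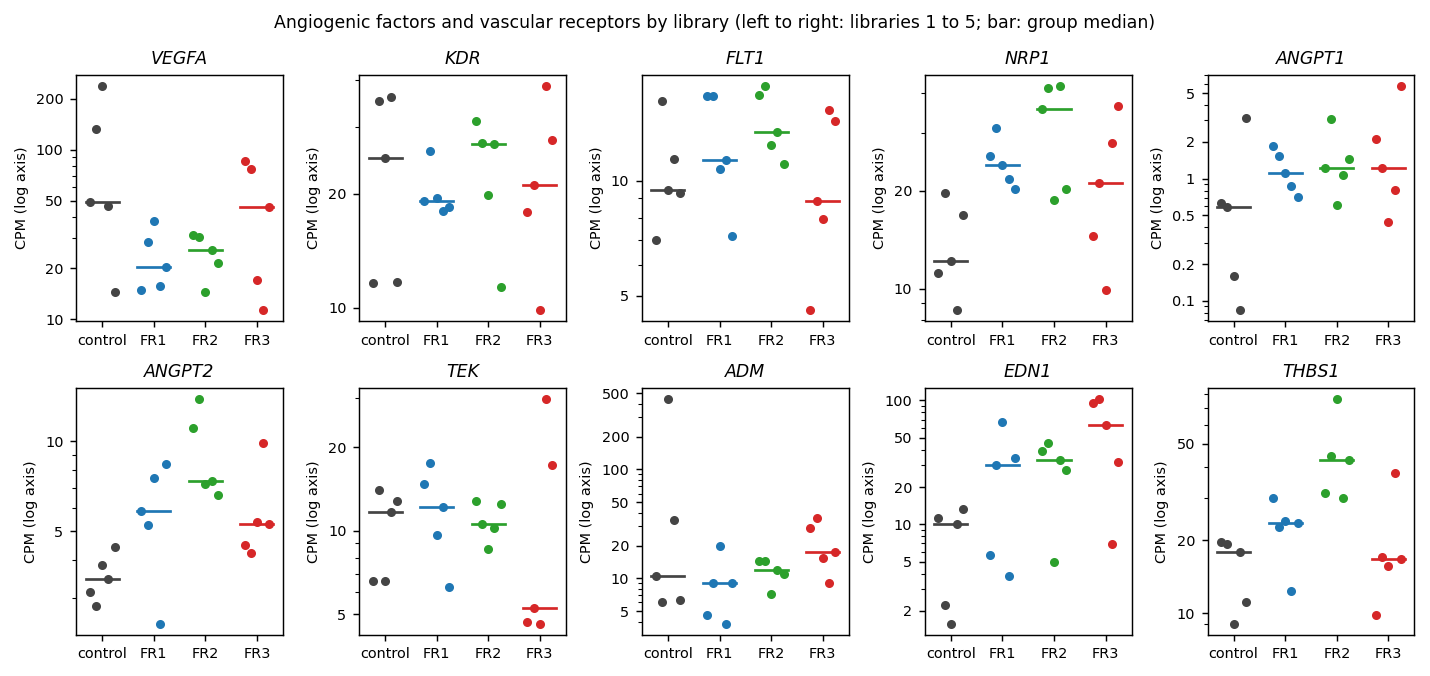
CPM (log axis) of the 10 genes in each library, with the 5 libraries of a group in column order and a bar at the group median. ADM in CONTROL_3 (443 CPM) stands far above the other 19 libraries, and EDN1 falls to 3.8 to 6.92 CPM in 4 inseminated libraries. THBS1 in FR2 lies above the 5 control libraries, as do 2.51% of all genes.

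Each inseminated group was also compared with control on its own. These comparisons share the same 5 control libraries, so their values are given side by side and are not independent of each other. In FR1, 0 of the 10 genes passed edgeR's test, beside 2.6% of all genes. At an unadjusted p below 0.05 there were 5 of the 10, beside 18.2% of all genes. DESeq2 called 2 of the 10, beside 8.17% of all genes, and limma-voom 0 under either spread. In FR2, 3 of the 10 rose and 0 fell, beside 1.57% of all genes called higher. In FR3, 1 of the 10 rose and 0 fell, beside 1.43% called higher. The test for any difference among the 4 groups called 1 of the 10, THBS1, beside 4.07% of all genes.

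**Figure D2:**
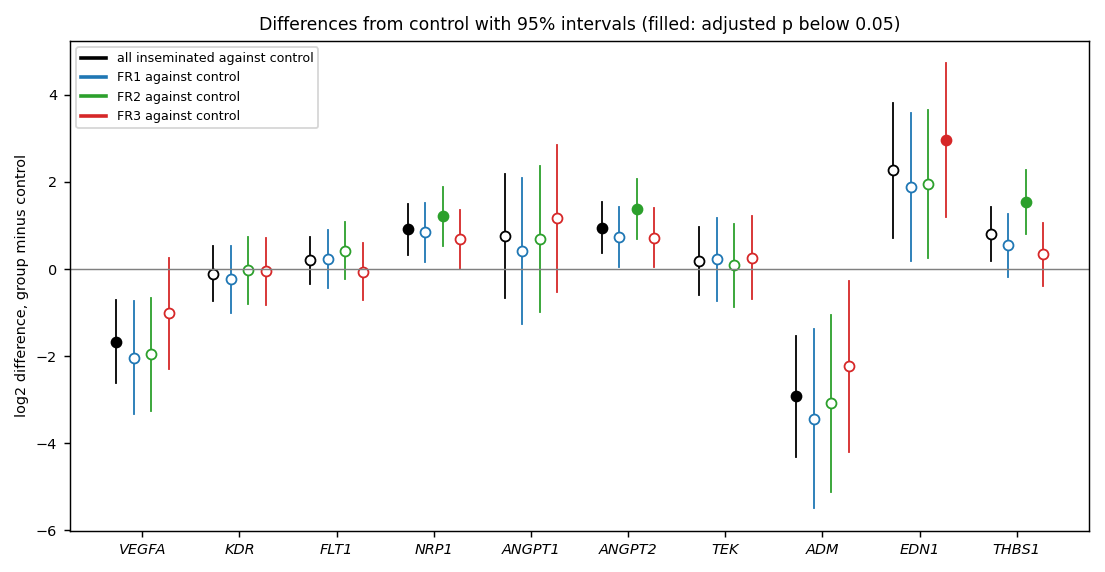
Fitted log2 differences from control with 95% intervals for the 10 genes, for all inseminated libraries together (black) and for FR1, FR2 and FR3. Filled points passed at an adjusted p below 0.05: VEGFA, NRP1, ANGPT2 and ADM together, NRP1, ANGPT2 and THBS1 in FR2, and EDN1 in FR3.

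VEGFA (gene ID 397157) was lower after insemination, but the control libraries differed widely. The controls stood at 49.2, 133, 238, 46.5 and 14.4 CPM in column order. FR1 libraries held 14.9, 28.6, 38.1, 15.6 and 20.3 CPM, and FR2 libraries 31.5, 30.6, 14.6, 25.7 and 21.4 CPM. FR3 libraries held 85.9, 77.1, 17, 11.3 and 46.1 CPM. CONTROL_2 and CONTROL_3 lay above each of the 15 inseminated libraries, while CONTROL_5 lay among the lowest. The fitted difference was -1.67 ± 0.45 (SE) on the log2 scale, a level 3.18-fold lower (edgeR adjusted p = 0.0218).

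That difference rested on CONTROL_2 and CONTROL_3. Without CONTROL_3 the VEGFA difference was -1.02 ± 0.43 (edgeR adjusted p = 0.191), and without CONTROL_2 it was -1.52 ± 0.49 (adjusted p = 0.0519). Without both it was -0.30 ± 0.45. Per group, VEGFA stood at -2.03 in FR1 (edgeR adjusted p = 0.0764), at -1.96 in FR2 (adjusted p = 0.0661) and at -1.02 in FR3 (adjusted p = 0.342), none of which passed. DESeq2 called the FR1 and the FR2 values. Over all inseminated libraries limma-voom did not call VEGFA (adjusted p = 0.134). An exact rank-sum test of the 5 control against the 15 inseminated libraries gave VEGFA p = 0.0983 (adjusted p = 0.357).

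Neither KDR nor FLT1 passed in any comparison. KDR (gene ID 397311) ran from 11.6 to 36.1 CPM in control, with a median of 24.8, and from 9.84 to 38.7 CPM in inseminated libraries, with a median of 19.9. The groups overlapped almost fully, and the log2 difference was -0.11 with a 95% interval of -0.73 to 0.52. FLT1 (gene ID 396763) ran from 6.98 to 16.2 CPM in control and from 4.58 to 17.7 CPM in inseminated libraries. Its log2 difference was 0.20, with an interval of -0.35 to 0.74. Changes of either receptor within these intervals were not detectable here.

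NRP1 (gene ID 100286859), the co-receptor of VEGFA and of class 3 semaphorins, was higher after insemination. Control libraries held 11.2, 19.6, 12.2, 8.57 and 16.8 CPM. FR1 libraries held 25.6, 31.2, 23.9, 21.7 and 20.2 CPM, FR2 libraries 35.7, 41.5, 18.6, 42 and 20.3 CPM, and FR3 libraries 14.5, 21.1, 9.9, 28 and 36.4 CPM. Of the 15 inseminated libraries, 12 lay above the highest control, and the other 3 were FR2_3, FR3_1 and FR3_3. The log2 difference was 0.91 ± 0.28, or 1.88-fold (edgeR adjusted p = 0.0388).

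NRP1 passed in FR2 at 1.21 ± 0.32, or 2.31-fold (edgeR adjusted p = 0.0356), and leaving out CONTROL_1, CONTROL_3, CONTROL_4, FR2_1, FR2_2 or FR2_4 ended that call (adjusted p of 0.0512 to 0.0973). In FR1 it was at 0.84 (adjusted p = 0.157), although the 5 FR1 libraries lay above the 5 controls, as they did for 1.24% of all genes. In FR3 it was at 0.68 (adjusted p = 0.224). The joint NRP1 call was near the threshold: the difference stayed between 0.79 and 1.08 in each of 31 alternatives, but 14 of them ended the call. Leaving out CONTROL_1, CONTROL_3, CONTROL_4, FR1_1, FR1_2, FR2_1, FR2_2 or FR2_4 was enough, with an adjusted p of 0.0522 to 0.101.

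Of the other 6 genes of the VEGF family list, 1 passed in all inseminated against control, beside 11.1% of all genes. VEGFB, a ligand of FLT1, fell by 0.36 ± 0.11 on the log2 scale, from 85.4 ± 11.5 CPM (SD, n = 5) to 66.7 ± 8.82 CPM (SD, n = 15; edgeR adjusted p = 0.0489). The VEGFB call was lost in 23 of 31 alternatives, at adjusted p = 0.19 without CONTROL_3. VEGFC, the ligand of the lymphatic receptor FLT4, was at 0.39 (edgeR adjusted p = 0.388). VEGFD, PGF, FLT4 and NRP2 lay between -0.37 and 0.60 and did not pass.

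ANGPT2 (gene ID 396730), the antagonist ligand of TEK, was higher after insemination in most libraries. Control libraries held 3.14, 2.81, 3.85, 3.46 and 4.45 CPM, a narrow range. FR1 libraries held 5.83, 5.26, 7.56, 2.46 and 8.41 CPM, FR2 libraries 11.1, 13.8, 7.22, 7.36 and 6.59 CPM, and FR3 libraries 4.49, 4.24, 5.39, 9.84 and 5.27 CPM. Above the highest control lay 13 of 15 inseminated libraries, the exceptions being FR1_4, below all 5 controls, and FR3_2. The log2 difference was 0.95 ± 0.28, or 1.93-fold (edgeR adjusted p = 0.0327).

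In FR2 the 5 libraries lay above the 5 controls for ANGPT2, as they did for 2.51% of all genes, and the rise was 1.38 ± 0.32, or 2.60-fold (edgeR adjusted p = 0.0204). Leaving out FR2_1 or FR2_2 ended the FR2 call (adjusted p of 0.0586 and 0.0619). The values were 0.74 in FR1 (adjusted p = 0.222) and 0.72 in FR3 (adjusted p = 0.199). The joint ANGPT2 difference held between 0.84 and 1.04 in 31 alternatives, of which 10 ended the call, among them leaving out CONTROL_1, CONTROL_2, CONTROL_3, CONTROL_4 or FR2_1 (adjusted p of 0.0503 to 0.0715). By an exact rank-sum test over the 15504 ways to choose 5 of 20 libraries, ANGPT2 had p = 0.00374 and an adjusted p of 0.0891. NRP1 had p = 0.00542 and an adjusted p of 0.102 in the same exact test.

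ANGPT1 (gene ID 397009), the activating ligand of TEK, was close to the floor of detection. Control libraries held 0.628, 0.588, 0.161, 0.0839 and 3.13 CPM, the lowest being 4 counts. Inseminated libraries ran from 0.438 to 5.76 CPM with a median of 1.22. CONTROL_5 lay far above the other controls and above all inseminated libraries but FR3_5. The log2 difference was 0.76 ± 0.67 (edgeR adjusted p = 0.518), and without CONTROL_5 it was 2.09 ± 0.68 (adjusted p = 0.0432).

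TEK (gene ID 396729), the angiopoietin receptor of endothelium passed in no comparison, and its groups overlapped. It ran from 6.56 to 14 CPM in control, from 6.28 to 17.6 CPM in FR1 and from 8.6 to 12.8 CPM in FR2. In FR3 the libraries held 4.69, 5.24, 4.62, 29.8 and 17.3 CPM, so 3 lay below all 5 controls and 2 above. The log2 difference of TEK in FR3 was 0.26 ± 0.45, and without FR3_4 it was -0.41 ± 0.40. Of the 6 other genes of the angiopoietin list, 0 passed edgeR's test and 0 had an unadjusted p below 0.05. DESeq2 and limma-voom also called 0. ANGPTL4 was at -0.43 and ANGPT4 at 0.41 on the log2 scale.

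Within a library, the ratio of estimated counts of ANGPT2 to ANGPT1 had a median of 5 in control and 4.53 in inseminated libraries. The controls spanned 1.42 to 41.2 because ANGPT1 varied. The ratio of VEGFA to FLT1 was 7.06, 8.22, 25.3, 4.09 and 1.55 in the control libraries. It lay between 0.892 and 3.55 in FR1 and between 1.17 and 1.93 in FR2, but between 0.74 and 18.8 in FR3. Only CONTROL_5 among the 5 controls lay inside the FR1 or FR2 range. The ratio of FLT1 to KDR had a median of 0.46 in control and 0.549 in inseminated libraries, and the groups overlapped.

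**Figure D3:**
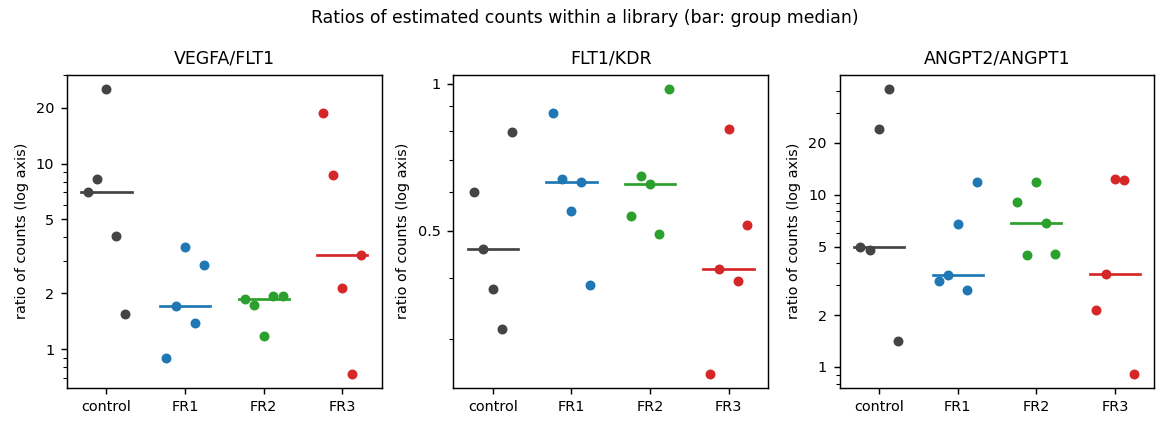
Ratios of estimated counts within each library (log axis), with a bar at the group median. VEGFA relative to FLT1 is at most 1.93 in the 5 FR2 libraries and reaches 25.3 in control and 18.8 in FR3. Each ratio overlaps between groups, and for VEGFA to FLT1 CONTROL_5 (1.55) lies inside the FR2 range.

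ADM (gene ID 397195) encodes adrenomedullin, a peptide that widens vessels and tightens the endothelial barrier. Its fitted fall came from 1 control library. Control libraries held 10.5, 6.06, 443, 34 and 6.32 CPM. FR1 libraries held 4.6, 8.97, 19.7, 3.84 and 8.99 CPM, FR2 libraries 14.5, 14.4, 7.12, 11.9 and 10.9 CPM, and FR3 libraries 28.8, 35.9, 15.2, 9.08 and 17.3 CPM. Apart from CONTROL_3 the control and inseminated ranges overlapped, and the medians were 10.5 CPM in control and 11.9 CPM in inseminated libraries.

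The log2 difference of ADM, a ratio of group means, was -2.92 ± 0.66, or 7.57-fold lower (edgeR adjusted p = 0.0072). Without CONTROL_3 it was -0.14 ± 0.44 (adjusted p = 0.897). The exact rank-sum test gave ADM p = 0.933. Per group it was at -3.44 in FR1 (edgeR adjusted p = 0.0605), -3.09 in FR2 (adjusted p = 0.0631) and -2.23 in FR3 (adjusted p = 0.166). DESeq2 called ADM lower in FR1 and in FR2. Of the 5 tested receptor and related genes of adrenomedullin, 0 passed edgeR's test, 0 had an unadjusted p below 0.05, and DESeq2 and limma-voom called 0. CALCRL, a subunit of the receptor, was at 0.62 (edgeR adjusted p = 0.315), and the scavenger receptor ACKR3 at -0.52 (adjusted p = 0.38).

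**Figure D4:**
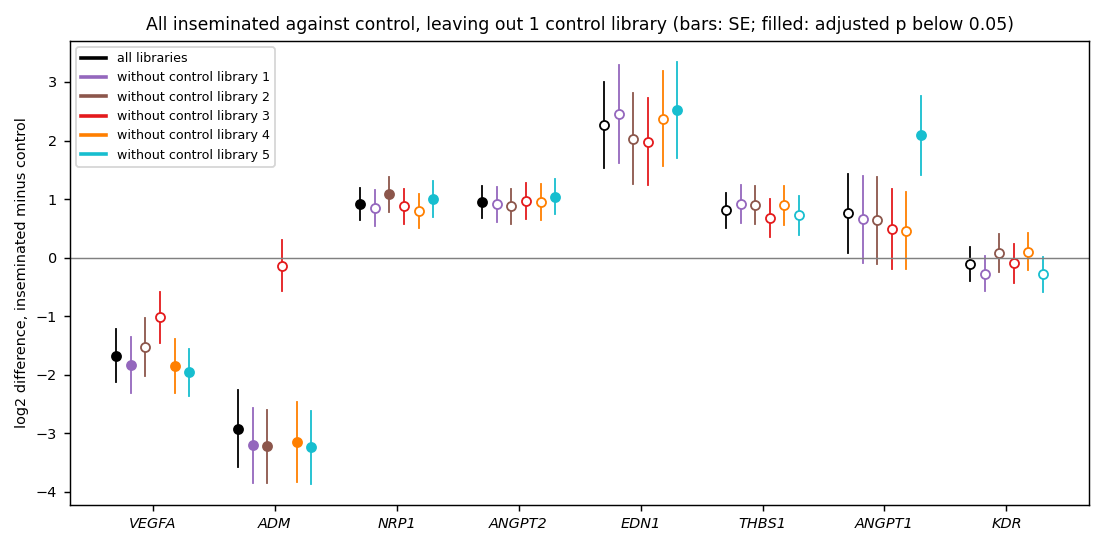
Fitted log2 difference, inseminated minus control, with SE bars, for 8 genes with all libraries and after leaving out each control library (filled: adjusted p below 0.05). The ADM difference goes from -2.92 to -0.14 without CONTROL_3, whereas those of NRP1, ANGPT2, EDN1 and THBS1 keep their sign and size.

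Hypoxia target genes, a class that includes VEGFA and ADM, were examined beside them. Of 20 others tested, 2 rose and 3 fell in all inseminated against control, beside 2.87% of all genes called higher and 8.2% lower. The median log2 difference of the 20 was 0.06. The facilitative glucose carrier SLC2A1 fell by 3.59 ± 0.62 in log2 units (edgeR adjusted p = 0.00116). Its controls ran from 54.4 to 3391 CPM, and without CONTROL_3 its difference was -0.51 (adjusted p = 0.28). BNIP3L, a mitophagy receptor, rose by 1.28 ± 0.33 (adjusted p = 0.0167), and the histone demethylase KDM3A rose by 0.46 ± 0.13 (adjusted p = 0.0253). DDIT4, an inhibitor of mTOR signalling, fell by 0.62 ± 0.18 (adjusted p = 0.0279). Without CONTROL_3 the list counted 1 higher and 0 lower. The summed level of the list was 5498 CPM in CONTROL_3, against 1448 to 2318 CPM in the other controls and 1331 to 2730 CPM in inseminated libraries.

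Immediate early and heat shock genes, which respond to handling of tissue and to stress, were also examined by library. Of 15 tested, 10 fell and 0 rose by edgeR, beside 8.2% of all genes called lower and 2.87% higher. DESeq2 called 10 lower, limma-voom 3 lower and limma-voom with a spread per group 0. The median log2 difference of these 15 genes was -1.53. Their summed level was 7756 CPM in CONTROL_3 and 4854 CPM in CONTROL_2, and 643 to 1515 CPM in the other 18 libraries. VEGFA was high in both of those controls, whereas ADM was high in CONTROL_3 and, at 6.06 CPM, lowest of the controls in CONTROL_2. JUNB, an AP-1 transcription factor, fell by 2.60 ± 0.47 (edgeR adjusted p = 0.00149), and the stress-response gene IER3 fell by 5.48 ± 0.76 (adjusted p = 0.000215). The heat shock gene HSPA6 fell by 4.94 ± 0.62 (adjusted p = 0.000112), and the matricellular gene CCN2 by 2.03 ± 0.39 (adjusted p = 0.0023). HSPA6 ran from 1.83 to 232 CPM in control libraries. Limma-voom did not call IER3, HSPA6 or CCN2 (adjusted p of 0.0524 to 0.116). By the exact rank-sum test JUNB, IER3, HSPA6 and CCN2 did not pass (adjusted p of 0.177 to 0.389). Without CONTROL_2 and CONTROL_3 the list counted 2 lower. The part of these genes in the VEGFA and ADM results was not tested.

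EDN1 (gene ID 396915) encodes endothelin-1, a peptide that constricts vessels. It was higher in most inseminated libraries. Control libraries held 11.2, 2.22, 1.58, 10.1 and 13.2 CPM. FR1 libraries held 5.66, 30.1, 66.9, 3.8 and 34.3 CPM, FR2 libraries 39, 45.2, 4.98, 32.7 and 27.2 CPM, and FR3 libraries 94.5, 102, 63.1, 6.92 and 32 CPM. The 15 inseminated libraries fell into 11 above all controls, at 27.2 CPM or more, and 4 within the control range.

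The fitted difference of EDN1 was 2.27 ± 0.73, or 4.81-fold, and just missed the threshold (edgeR adjusted p = 0.0524), while DESeq2 called it (adjusted p = 0.00306). In FR3 it passed at 2.96 ± 0.84, or 7.79-fold (adjusted p = 0.0497), a call that 19 of 31 alternatives ended. Among these were leaving out CONTROL_2, CONTROL_3, CONTROL_4, FR3_1, FR3_2, FR3_3 or FR3_5 (adjusted p of 0.0642 to 0.116), and also FR1_2, FR1_5, FR2_1, FR2_2, FR2_4 or FR2_5 (adjusted p of 0.0625 to 0.0644). In FR1 it was at 1.88 (adjusted p = 0.214) and in FR2 at 1.96 (adjusted p = 0.157). No group lay fully above control for EDN1, although 1.01% of all genes did so in FR3.

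The 4 libraries with low EDN1 were FR1_1, FR1_4, FR2_3 and FR3_4. Epithelial markers were lowest in the same 4, with a summed level of 1545 to 1909 CPM over 10 markers. The other 11 inseminated libraries held 2640 to 6013 CPM and the controls 3909 to 7144 CPM. Within each inseminated group these libraries also had the lowest VEGFA and ADM. Controls combined high epithelial markers with EDN1 of at most 13.2 CPM. Leaving out the 4 libraries takes the lowest EDN1 values from the inseminated side, and the difference was then 2.64 ± 0.49. The part of epithelial content in the EDN1 result was not tested. Of the 10 epithelial markers, 6 fell and 0 rose by edgeR in all inseminated against control, beside 8.2% of all genes called lower. At an unadjusted p below 0.05, 6 epithelial markers were lower and 1 was higher. DESeq2 called 6 of them lower and 0 higher, and limma-voom 5 lower and 1 higher. With a spread per group limma-voom called 3 lower and 0 higher. Of 7 stromal fibroblast markers, 2 rose and 0 fell by edgeR, beside 2.87% of all genes called higher. All 7 had a fitted difference above 0, with a median of 1.16 on the log2 scale against -0.05 over all genes. At an unadjusted p below 0.05, 5 were higher. DESeq2 and limma-voom each called 4 higher, and limma-voom with a spread per group 1. The fibroblast sum was 1547 to 7194 CPM in control and 3918 to 14670 CPM in inseminated libraries.

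**Figure D5:**
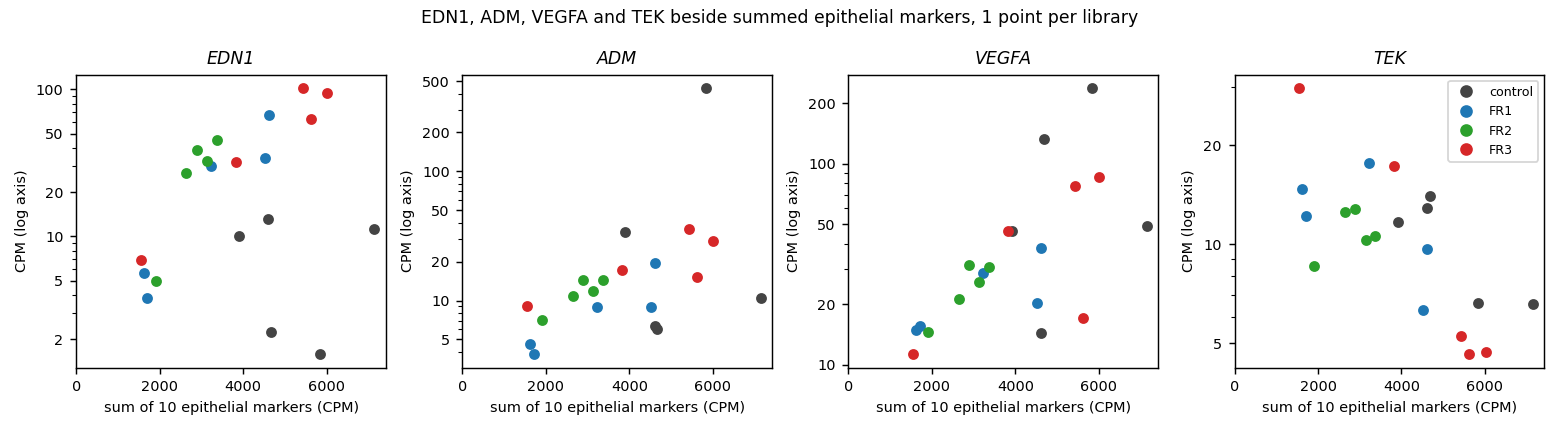
CPM of EDN1, ADM, VEGFA and TEK (log axis) against the summed CPM of 10 epithelial markers, 1 point per library, coloured by group. The 4 inseminated libraries with at most 1909 CPM of epithelial markers have the lowest EDN1 of their groups, and the controls lie below the inseminated libraries of like epithelial level for EDN1.

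Of 5 tested genes of the endothelin system other than EDN1, 1 rose and 1 fell in all inseminated against control. The shares of all genes were 2.87% called higher and 8.2% called lower. EDNRA, the receptor on contractile cells, was at 6.18, 22.7, 21.6, 11.3 and 40.5 CPM in the control libraries. It ran from 42.8 to 70.8 CPM in FR1, from 52.6 to 76.5 CPM in FR2 and from 17.9 to 75 CPM in FR3. FR1 and FR2 lay above all controls, as they did for 1.24% and 2.51% of all genes, and FR3 overlapped the controls. EDNRA rose by 1.34 ± 0.35 in log2 units (edgeR adjusted p = 0.019). Leaving out CONTROL_3 or CONTROL_4 ended that call (adjusted p of 0.0575 and 0.0615).

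ECE1, the enzyme that cleaves the endothelin precursor, fell by 1.34 ± 0.32 in log2 units (edgeR adjusted p = 0.011). Its controls held 166, 221, 503, 938 and 146 CPM, against 88 to 268 CPM in inseminated libraries. The 2 highest were CONTROL_4 and CONTROL_3. Without CONTROL_4 the ECE1 difference was -0.73 (adjusted p = 0.106). EDNRB, the other receptor, EDN3 and ECE2 did not pass.

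THBS1 (gene ID 492313) encodes thrombospondin-1, a matrix protein that restrains endothelial growth and activates TGF-beta. It was highest in FR2. Control libraries held 19.7, 19.3, 9.08, 18 and 11.1 CPM, and FR1 libraries 30, 22.7, 24.1, 12.3 and 23.5 CPM. FR2 libraries held 31.3, 44.5, 76.5, 29.8 and 42.8 CPM, and FR3 libraries 9.84, 17, 15.7, 37.8 and 16.8 CPM. The 5 FR2 libraries lay above the 5 controls for THBS1, as they did for 2.51% of all genes. Of the 5 FR1 libraries 4 lay above all controls, and of the 5 FR3 libraries only FR3_4.

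THBS1 rose in FR2 by 1.54 ± 0.35, or 2.91-fold (edgeR adjusted p = 0.0164). That call ended without CONTROL_3 (adjusted p = 0.0538). In FR1 it was at 0.54 (adjusted p = 0.432) and in FR3 at 0.33 (adjusted p = 0.616). The FR3 value turned to -0.08 without FR3_4. Over all inseminated libraries the difference was 0.81 ± 0.29 (adjusted p = 0.0829), which DESeq2 called. In the test for any difference among the 4 groups THBS1 passed (edgeR adjusted p = 0.0327). No gene of the 10 passed that test after leaving out CONTROL_3, CONTROL_4, FR1_2, FR2_2, FR2_3, FR2_5, FR3_2, FR3_3 or FR3_5. Of 5 other thrombospondin list genes, 0 passed edgeR's test, with 1 higher and 1 lower at an unadjusted p below 0.05, and DESeq2 and limma-voom called 0. THBS4, the muscle and tendon thrombospondin, was at -1.68 (adjusted p = 0.14). The THBS1 receptor CD47 was at 0.88 (adjusted p = 0.156).

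Across the 5 family lists, 27 further genes were tested in all inseminated against control. Of the 27, 1 rose and 2 fell, near the shares of all genes called higher (2.87%) and lower (8.2%). The median log2 difference of the 27 was 0.13, against -0.05 over all genes. The pericyte list held 8 tested markers with 0 called by edgeR, 3 of them higher at an unadjusted p below 0.05, and 0 called by DESeq2 or limma-voom. KCNJ8 and ABCC9, subunits of the pericyte potassium channel, were at 0.70 (adjusted p = 0.0953) and 0.96 (adjusted p = 0.134). Without CONTROL_2 both passed edgeR's test, at 0.94 and 1.36.

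Between the inseminated groups none of the 10 genes passed edgeR's test. In FR2 against FR1 and in FR3 against FR1 the share called among all genes was 0%, and in FR3 against FR2 it was 0.00564%. At an unadjusted p below 0.05 there was 1 of the 10 in FR2 against FR1, 1 in FR3 against FR2 and 0 in FR3 against FR1. The shares of all genes at that cut were 0.733%, 7.37% and 8.29%, so 1 of 10 in FR3 against FR2 is near the background. DESeq2 and limma-voom called 0 of the 10 in each, where DESeq2 called 0%, 0.118% and 0.0676% of all genes.

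THBS1 gave the 2 unadjusted values. It was 1.00 higher in FR2 than in FR1, with a 95% interval of 0.27 to 1.73, and it was lower in FR3 than in FR2, at -1.21 with an interval of -1.94 to -0.48. Adjusted over all genes by edgeR, the lowest p among the 10 genes was 1 in FR2 against FR1, 0.666 in FR3 against FR2 and 0.624 in FR3 against FR1. ANGPT2 followed with 0.64 (interval -0.03 to 1.32) in FR2 against FR1 and -0.66 (interval -1.33 to 0.02) in FR3 against FR2. NRP1 was at 0.37 (interval -0.31 to 1.04) and -0.53 (interval -1.2 to 0.15) in the same comparisons.

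FR3 against FR2 also gave 0.94 for VEGFA, -0.48 for FLT1 and 1.00 for EDN1, each with an interval that spans 0. FR3 against FR1 gave 1.02 for VEGFA, 1.2 for ADM and 1.09 for EDN1, again with intervals that span 0. The other 18 of 30 differences between inseminated groups were smaller than their own standard error. Standard errors ran from 0.31 to 0.90, the smallest for FLT1 and the largest for ADM.

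For each of the 10 genes, the 3 genes with the most similar level over the 20 libraries were found by Spearman's rho of log2 CPM among 14695 genes. The libraries share depth and tissue make-up with each other, so these are descriptions. EDN1 had the closest matches, RASGEF1A at 0.992, the ion channel gene TMEM63C at 0.976 and the tight junction gene CLDN9 at 0.973, and over the 15 inseminated libraries alone the values were 0.993, 0.961 and 0.957. ADM was most like PLOD3 (0.907), the epithelial transcription factor EHF (0.893) and the nucleotide receptor P2RY2 (0.883). VEGFA was most like ZDHHC23 (0.944), EYA2 (0.94) and CNNM4 (0.938).

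The receptors were matched by other genes. KDR was most like MYLIP (0.856), ATP10D (0.798) and HEG1 (0.774), a gene of endothelial junctions. FLT1 was most like PXDN (0.898), GUCY1A2 (0.886) and the connexin GJC1 (0.88), and TEK most like FZD1 (0.884), ADAM23 (0.875) and SEC23A (0.871). NRP1 was most like RASAL2 (0.91), ADAM12 (0.896) and SEMA5A (0.893). The closest genes to ANGPT1, ANGPT2 and THBS1 were MFSD8 (0.827), RAB32 (0.839) and MED12L (0.827).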

How the data were processed

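Messenger RNA from the uterus of 20 sows was captured with poly-T beads and sequenced as 150 bp pairs, per the labels' protocols. Per the submitters' processing notes, the tools were STAR 2.7.9a, Salmon 1.10.1 and CASAVA. Build, annotation and strandedness are not given in the sources used here. Whether reads of overlapping antisense genes were kept apart is therefore not known, and reads of near-identical genes may be shared. The authors deposited estimated counts per gene, as their counting tool gave them, unscaled and 87.2% of them whole, and these were rounded before testing. Of 30369 rows, 24 carried no gene name and were left out (0.0036% to 0.0133% of counts). RefSeq's gene table for Sscrofa11.1 held 30328 of the gene IDs and served for names only.

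Table columns name the group but not the sow. The labels call the samples separate sows, so p-values measure the spread between sows.

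Tests used edgeR 4.0.16 under R 4.3.3 (TMM, filterByExpr, 2-sided quasi-likelihood test, all 20 libraries in 1 fit with 16 residual degrees of freedom). P-values were adjusted over 17745 genes by Benjamini-Hochberg, with calls below 0.05. The fitted fold compares mean counts, so 1 high library can set it. A standard error is the log2 difference over the square root of F. Where leaving out libraries is described, the same fit was repeated without them. The procedure was also run on simulated counts drawn with the same spread in every group. That run does not cover a control group more uneven than the others.

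The 10 genes, the 18 lists (156 genes, 147 tested) and the alternatives were chosen with earlier results of these data known. Named genes are the 10, up to 4 called genes per family or companion list with the smallest p (or, with fewer than 2 called, the 2 with the smallest p), and the 3 genes most alike to each of the 10 at a mean of at least 1 CPM. For cell type lists other than endothelium and pericytes, counts and sums are given, and for stromal fibroblasts also the median difference. Further family genes named without a test result of their own were chosen after their values were seen. Alternatives were DESeq2 1.42.0, relative log expression factors, limma-voom (limma 3.58.1) with a shared spread or a spread per group, other filters, fewer libraries, an exact rank-sum test and a difference of mean log2 CPM (prior count 0.5).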

Additional observations from a re-analysis of the deposited data

Results flagged for a closer look

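In 5 of 40 sets of 5 libraries (10 genes in 4 groups), the highest library lay apart from the others. The gap was more than Dixon's critical value of 0.71 of the range, which flags about 1 in 20 sets of independent, normally distributed values. CPM were used without logs and the genes share libraries, so that rate does not apply to these sets. ADM was at 443 CPM in CONTROL_3, with the next control at 34 CPM. ANGPT1 was at 3.13 CPM in CONTROL_5, with the next at 0.628 CPM. In FR3_4, ANGPT2 was at 9.84 CPM and THBS1 at 37.8 CPM, with the next FR3 libraries at 5.39 and 17 CPM. KDR was at 26 CPM in FR1_2, with the next FR1 library at 19.6 CPM.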

How the results depend on the processing

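No paired analysis was possible because the columns carry no sow number shared between groups. In all inseminated against control, 0 of the 10 genes were called with limma-voom under either spread, by the exact rank-sum test, and without CONTROL_2 and CONTROL_3 or without those and CONTROL_4. Leaving out 1 library gave 0 (CONTROL_3) to 6 (CONTROL_5). In FR1 the count was 2 with DESeq2 and 0 to 2 (CONTROL_5) leaving out 1 library. In FR2 it was 5 with DESeq2, 0 with a spread per group, with only the groups compared and without either set of controls, and 1 (CONTROL_3, FR2_1 or FR2_2) to 5 (CONTROL_5) leaving out 1 library. In FR3 it was 0 with limma-voom under either spread, with no filter, with only the groups compared and without either set of controls, and 0 to 2 leaving out 1 library. For any difference among the 4 groups it was 2 with relative log expression factors, 5 with DESeq2, 3 without the 4 libraries of low epithelial markers, 0 with limma-voom under either spread and without either set of controls, and 0 (any of 9 libraries, CONTROL_3 among them) to 3 (CONTROL_5) leaving out 1 library. Between inseminated groups the count stayed 0 in the alternatives run. The tools also differed over all genes, so these counts of the 10 partly follow the tool. In FR2, DESeq2 called 2125 genes, edgeR 985 and limma-voom with a spread per group 358. For any difference among the 4 groups the numbers were 2118, 723 and 22. With only the groups compared, edgeR called 1 of all genes in FR2 and 0 in FR3.

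Directions that turned are given as log2 values. Without CONTROL_2 and CONTROL_3, KDR was at 0.15 (all inseminated), 0.028 (FR1), 0.21 (FR2) and 0.20 (FR3), ANGPT1 at -0.043 (FR1), VEGFA at 0.34 (FR3), FLT1 at 0.13 (FR3) and ADM at 0.28 (FR3). Without CONTROL_4 as well, KDR was at 0.95, 0.83, 1.02 and 1.01, and ADM at 0.66, 0.14, 0.49 and 1.33, in the same 4 comparisons. ANGPT1 was then at -0.27 (all inseminated), -0.59 (FR1) and -0.34 (FR2), VEGFA at 0.58 (FR3) and FLT1 at 0.34 (FR3). In that setting ACKR3 was at 0.14, ECE1 at 0.014, THBS4 at 0.62, IER3 at 0.45 and HSPA6 at 0.13 in all inseminated against control. With limma-voom KDR was at 0.051 (FR2) and 0.0041 (FR3) and TEK at -0.060 (FR3). With a spread per group KDR was at 0.000138 (all inseminated), 0.050 (FR2) and 0.0058 (FR3) and TEK at -0.057 (FR3). Without the 4 libraries of low epithelial markers TEK was at -0.060 (all inseminated) and -0.41 (FR3), and THBS1 at -0.084 (FR3). Leaving out 1 library moved KDR between -0.29 and 0.10 (all inseminated), -0.22 and 0.17 (FR2) and -0.35 and 0.16 (FR3). It moved TEK between -0.030 and 0.32 (all inseminated), -0.051 and 0.22 (FR2) and -0.41 and 0.48 (FR3). In FR3 it moved FLT1 between -0.28 and 0.14, ADM between -2.56 and 0.53, and THBS1 between -0.085 and 0.51. The cause was not tested.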

Other observations

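Platelet and lymphatic endothelial markers, further cell types that vessels carry, gave no call by edgeR. Of 3 tested platelet markers 1 was higher at an unadjusted p below 0.05 and DESeq2 called it, while limma-voom called 0. Their summed level was 6.88 to 32.5 CPM in control and 9.82 to 139 CPM in inseminated libraries. GP1BA, named after its values were seen, held most of the mean sum, at 10.7 ± 12.1 CPM (SD, n = 5) in control and 56.8 ± 39.4 CPM (SD, n = 15) after insemination. The platelet genes GP9 and ITGA2B had log2 differences of 0.40 and -0.23. Among inseminated libraries the platelet sum was lowest in FR1_1 (14.9 CPM), FR1_4 (14.4 CPM), FR2_3 (18.5 CPM) and FR3_4 (9.82 CPM). These are the libraries of low epithelial markers, and the other inseminated libraries held 48.7 to 139 CPM. The part of platelets or of epithelial content in the GP1BA level was not tested. Of 5 lymphatic markers 2 were higher at an unadjusted p below 0.05, and DESeq2 and limma-voom called 0. The lymphatic sum was 14.9 to 50.8 CPM in control, with a median of 28.4 CPM, and 14.8 to 189 CPM in inseminated libraries, with a median of 48.6 CPM. Of 4 red blood cell markers 0 passed edgeR's test, 0 had an unadjusted p below 0.05, and DESeq2 and limma-voom called 0. The red cell sum ran from 16.3 to 595 CPM in control and from 10.3 to 1901 CPM in inseminated libraries.

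Among leukocyte lists, 1 of 8 macrophage and 2 of 7 neutrophil markers fell by edgeR, beside 8.2% of all genes called lower. DESeq2 called 1 macrophage marker higher and 0 lower, and 1 neutrophil marker lower. Limma-voom called 0 in both lists. Of 8 T and natural killer cell markers 0 passed edgeR's test, with 1 lower at an unadjusted p below 0.05 and 0 called by DESeq2 or limma-voom. Of 8 smooth muscle markers 0 passed edgeR's test, 0 had an unadjusted p below 0.05, and DESeq2 and limma-voom called 0.

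The ratio of estimated counts of ADM to VEGFA within a library was close among the FR2 libraries, at 0.462 to 0.51. It ran from 0.246 to 0.517 in FR1, from 0.335 to 0.893 in FR3 and from 0.0455 to 1.86 in control. The ratio of ANGPT2 to TEK had a median of 0.347 in control, 0.396 in FR1, 0.84 in FR2 and 0.809 in FR3, with overlapping ranges.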
